A study of Mus musculus with 36 samples.

Results

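Cholesterol synthesis was followed through 8 genes: Hmgcs1, Idi1, Fdft1, Sqle, Lss and Cyp51, which encode enzymes of the pathway, and Insig1 and Srebf2, which encode 2 of its regulators. They were chosen by name, with earlier results of these data known. Their rows were read from both count tables, where they are 8 of 18120 rows for female and 8 of 18295 rows for male mice. All 8 passed the filter on low counts in every comparison. Left lung RNA of 36 C57BL/6 mice was sequenced, with 3 females and 3 males per group and 6 groups. The mice were 8 weeks old at the first dose and were given 50 µL on days 0, 7 and 13 before being killed on day 14. One group received saline, the control. The others received crude oil (oil), the dispersant Corexit 9500 (9500), the dispersant Corexit 9527 (9527), or oil with either dispersant (9500+oil, 9527+oil), all as a 0.1 strength accommodated fraction. The labels name a water-accommodated fraction given by intratracheal instillation, whereas the methods of the study name a saline-accommodated fraction given by oropharyngeal aspiration. No group carried a transgene or deletion. Female and male libraries form separate tables, so that sex and table cannot be told apart, and levels were not compared between the sexes.

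Cells make cholesterol from acetyl-CoA. HMGCS1 condenses the units that become mevalonate, IDI1 interconverts the isoprene units, and FDFT1 joins the resulting chains into squalene. SQLE oxidizes squalene, LSS closes the sterol rings to give lanosterol, and CYP51 demethylates lanosterol. Srebf2 encodes SREBP2, the transcription factor that turns most of these genes on when sterols in the membrane of the endoplasmic reticulum are low. INSIG1 holds SREBP2 there when sterols are plentiful, and Insig1 is itself a target of the SREBP factors. In the lung, alveolar type 2 cells use cholesterol for surfactant and alveolar macrophages clear it.

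In the GENCODE M21 annotation of GRCm38, all 8 are protein-coding genes. Hmgcs1 (ENSMUSG00000093930) is at chr13:119690379-119708260 on the plus strand, and Idi1 (ENSMUSG00000058258) is on the same chromosome and strand at chr13:8885501-8892451. Fdft1 (ENSMUSG00000021273) is at chr14:63145150-63179578 on the minus strand. Sqle (ENSMUSG00000022351) and Srebf2 (ENSMUSG00000022463) are both on the plus strand of chromosome 15, at chr15:59315077-59331192 and chr15:82147181-82205379. Lss (ENSMUSG00000033105) is at chr10:76531588-76557138 on the plus strand. Cyp51 (ENSMUSG00000001467) is at chr5:4081145-4104746 on the minus strand, and Insig1 (ENSMUSG00000045294) is on the plus strand of the same chromosome at chr5:28071363-28078662. The counts are sums per gene symbol, so they say nothing about single exons or isoforms.

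The promoter sequences of Hmgcs1, Idi1 and Cyp51 are shown because these were the members whose 9527 and 9527+oil mice did not overlap in either sex. Each is the 250 bases before the RefSeq transcription start in GRCm38.p6, written 5′ to 3′ on the strand of the gene. They lie at chr13:119690101-119690350 (plus strand), chr13:8885356-8885605 (plus strand) and chr5:4104698-4104947 (minus strand). Capitals mark a sterol regulatory element (TCACNCCAC), an NF-Y box (CCAAT) or an Sp1 box (GGGCGG) on either strand, so that ATTGG and CCGCCC are boxes on the opposite strand.
Hmgcs1: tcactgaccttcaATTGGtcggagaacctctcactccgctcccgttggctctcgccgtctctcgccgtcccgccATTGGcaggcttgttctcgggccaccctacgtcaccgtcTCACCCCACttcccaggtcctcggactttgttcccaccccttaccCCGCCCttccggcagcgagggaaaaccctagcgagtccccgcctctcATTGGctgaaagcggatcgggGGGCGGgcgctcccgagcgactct
Idi1: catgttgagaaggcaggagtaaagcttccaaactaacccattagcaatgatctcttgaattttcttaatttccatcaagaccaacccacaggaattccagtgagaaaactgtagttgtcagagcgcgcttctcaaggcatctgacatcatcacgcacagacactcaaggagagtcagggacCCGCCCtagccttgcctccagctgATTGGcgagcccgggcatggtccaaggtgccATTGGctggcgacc
Cyp51: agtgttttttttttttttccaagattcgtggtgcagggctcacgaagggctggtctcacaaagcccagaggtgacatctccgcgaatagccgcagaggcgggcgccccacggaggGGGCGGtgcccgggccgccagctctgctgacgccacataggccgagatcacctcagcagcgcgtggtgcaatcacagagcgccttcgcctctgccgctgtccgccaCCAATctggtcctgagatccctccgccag
Promoter windows of 300 bases, from 250 before to 50 after the start, were found for 6 members, the other 3 being Insig1, Srebf2 and Lss. The NF-Y box was in 6 of 6 windows, against 37.4% of all 32851 promoter windows of that length. The Sp1 box was also in 6 of 6, against 35.7% of all windows. The 9 letters of the sterol regulatory element were in 1 of the 6, that of Hmgcs1, where the match began 137 bases before the start, and in 1.24% of all windows. No matches overlapped. The shares are descriptions, and a match is not evidence of binding.

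Levels are given in CPM, the count of a gene scaled to a common library size after TMM normalization. They are thus not shares of the total counts. Total counts ran from 17501180 to 30011557 per library. Among the female libraries 4 held over 20% of their counts in mitochondrial genes, against 6.161% to 11.34% in the other 14 female and 5.27% to 7.676% in the 18 male libraries. They were saline mouse 3 (45.1%), oil mouse 6 (22.6%), 9527 mouse 11 (38.4%) and 9500+oil mouse 14 (20.7%). Female 9500 mouse 7 (11.34%) also stood apart, with a median absolute distance of 0.50 (log2 CPM) from the median female level of a gene, against at most 0.24 in the other 13. Alveolar type 2 markers summed to 9431 to 23770 CPM in female and 17240 to 27390 CPM in male libraries, alveolar type 1 markers to 3822 to 6331 and 5249 to 6989 CPM, and endothelial markers to 2156 to 4530 and 3634 to 5087 CPM. Liver markers, a check for carried-over tissue, summed to at most 2.65 CPM in female and 17.7 CPM in male libraries.

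After TMM normalization, Srebf2, Hmgcs1, Fdft1 and Cyp51 differed in CPM between the 4 libraries and the 13 others without overlap. For the genes that were higher in the 4 libraries this depends on the scaling. In saline mouse 3, 973 Hmgcs1 counts of 17501180 in all gave 114.0 CPM. In saline mouse 2, 3282 counts of 27430492 gave 101.7 CPM. Srebf2 was at 26.5 to 49.8 CPM in the 4 libraries over 20% and at 104.7 to 208.5 CPM in the 13 others, with 77.2 CPM in 9500 mouse 7, so the ranges did not touch. Hmgcs1, Fdft1 and Cyp51 stood on the other side, with means in the 4 libraries that were 1.03, 1.20 and 1.00 higher on the log2 CPM scale than in the 13. In 9500 mouse 7, Fdft1 was 1.55 and Cyp51 0.92 higher than the mean of the 13. The other 4 members overlapped the 13, with differences of 0.49 (Insig1), 0.39 (Idi1), -0.16 (Sqle) and -0.15 (Lss). In these 4 libraries the log2 ratio of counts in GC-rich to GC-poor genes was -3.1 to -2.02 relative to the female median. Srebf2 has the most GC-rich transcript of the 8, with 57.9% GC against a median of 50.1% over all matched genes. The members with GC-poor transcripts, Hmgcs1 (43.1%), Cyp51 (46.2%), Idi1 (41.9%) and Insig1 (48.2%), had higher means in the 4 libraries, but Sqle (49.3%) had not, and Fdft1 (51.8%) had a higher mean with a transcript above the median. The part of base composition in these levels was not tested. Female fits against saline and within the 9527 pair are given below with and without the 4 libraries. In bulk lung, fewer cells of a type and less RNA per cell cannot be told apart.

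**Figure D1:**
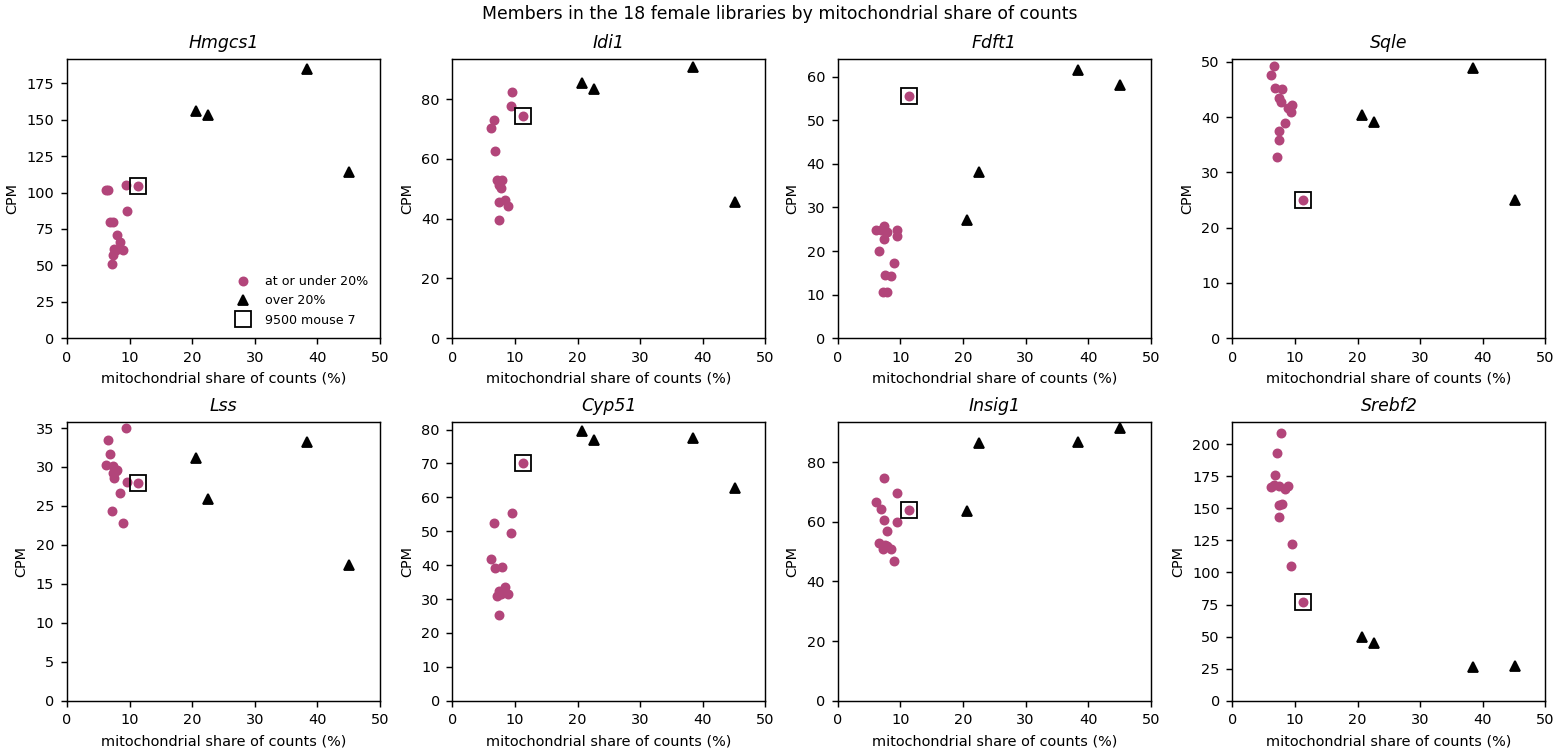
Level of each member (y axis, CPM) in the 18 female libraries against the share of counts in mitochondrial genes (x axis, percent); triangles are the 4 libraries over 20% and the open square marks 9500 mouse 7. Srebf2 lay below 50 CPM in all 4 triangles, while Hmgcs1 lay above every circle in all 4 and Cyp51 above every circle other than the marked one.

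The first enzyme, Hmgcs1, was at 91.0 ± 29.9 CPM (mean ± SD, n = 3) in female saline mice and at 86.6 ± 4.9 CPM in male ones. Female mice given 9527 had 102.1, 185.0 and 87.0 CPM, and those given 9527+oil had 61.4, 60.7 and 51.0 CPM. Male mice given 9527 had 122.1, 109.6 and 84.0 CPM, and those given 9527+oil had 63.2, 81.6 and 61.0 CPM. In both sexes every 9527+oil mouse was thus below every 9527 mouse. In female mice the oil group (105.0, 79.6 and 153.4 CPM) and the 9500+oil group (79.7, 156.2 and 60.5 CPM) spanned most of the range of the table, their high values coming from the libraries over 20%. The male oil group, at 78.3, 77.6 and 62.2 CPM, lay below the 3 saline mice (92.0, 85.7 and 82.2 CPM), as did male 9527+oil. Of all genes in male mice, 5.35% with oil and 5.88% with 9527+oil were lower than saline in this way.

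Idi1, the isomerase, was at 53.8 ± 14.4 CPM in female and 51.9 ± 2.8 CPM in male saline mice. Given 9527, female mice had 72.9, 90.9 and 82.5 CPM and male mice 72.5, 66.0 and 58.9 CPM, all above the saline mice of their sex. That order, 9527 above saline without overlap in both sexes, was met by 1 of the 8 members and by 0.931% of all genes (142 of 15259). With 9527+oil the female mice had 39.6, 50.3 and 53.0 CPM and the male mice 37.1, 55.8 and 45.8 CPM, all below the 9527 mice of their sex. The male 9500 group, at 69.7, 69.7 and 51.5 CPM, overlapped saline in 1 mouse.

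Fdft1, which commits the pathway to sterols, ran from 10.5 to 61.5 CPM in female mice. Its highest female values were 61.5 CPM in 9527 mouse 11, 58.1 CPM in saline mouse 3 and 55.7 CPM in 9500 mouse 7, which are 3 of the 5 libraries that stood apart. The 9527+oil mice, none of them in that set, had the 14.6, 10.5 and 10.6 CPM that were among the lowest of the table, against 20.1, 61.5 and 24.8 CPM with 9527 and 25.7, 24.8 and 58.1 CPM with saline. In male mice Fdft1 ran from 19.4 to 38.3 CPM, and 9527+oil (21.2, 23.6 and 26.7 CPM) overlapped 9527 (32.2, 32.4 and 26.6 CPM) by a narrow margin.

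Sqle, the squalene epoxidase, had its highest mean with 9527 in both sexes. Its female group means ran from 36.4 ± 10.3 CPM (9500) to 46.8 ± 4.1 CPM (9527) and its male ones from 33.7 ± 3.7 CPM (9500+oil) to 46.8 ± 7.7 CPM (9527), and every group overlapped its neighbour in that order. Lss, the cyclase, had female means from 25.7 ± 7.1 CPM (saline) to 31.6 ± 3.1 CPM (9527) and male means from 32.6 ± 3.0 CPM (9527+oil) to 38.5 ± 5.7 CPM (9527). Neighbouring groups overlapped here too.

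Cyp51, the lanosterol demethylase, had 52.4, 77.5 and 55.5 CPM in female mice given 9527 and 25.2, 31.5 and 31.0 CPM in those given 9527+oil. In male mice the values were 46.9, 58.0 and 37.0 CPM with 9527 and 27.2, 34.3 and 27.7 CPM with 9527+oil. The groups did not overlap in either sex. Saline lay between them in the means of both sexes, at 45.7 ± 15.6 CPM in female and 36.0 ± 4.6 CPM in male mice. Its female 9527+oil mice were also all below the saline mice (32.3, 41.9 and 62.8 CPM), as were 6.97% of all genes, the margin being under 1 CPM.

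Of the 2 regulators, Insig1 was highest in saline among the female groups (77.6 ± 12.5 CPM; 74.8, 66.8 and 91.3 CPM), and the 9500 (63.8, 50.7 and 51.8 CPM), 9500+oil (60.7, 63.6 and 46.7 CPM) and 9527+oil (52.2, 57.0 and 50.7 CPM) mice all lay below the 3 saline mice. Of all genes in female mice, 2.85% with 9500, 0.728% with 9500+oil and 6.97% with 9527+oil did so. In male mice its group means were closer, from 48.4 ± 10.9 CPM (oil) to 58.6 ± 7.3 CPM (9500+oil), and all overlapped. Srebf2 had male group means from 210.7 ± 13.8 CPM (9527) to 228.5 ± 6.4 CPM (9500+oil). In female mice it was at 167.8, 208.5 and 192.9 CPM with 9527+oil, above all 3 saline mice and above the 9500 group, the next by mean, but overlapping 1 oil mouse (175.7 CPM) and 1 9527 mouse (168.4 CPM). With 9527+oil, 10.5% of all genes in female mice lay above all 3 saline mice. Each of the groups of saline, oil, 9527 and 9500+oil held 1 library over 20% in which Srebf2 was under 50 CPM.

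**Figure D2:**
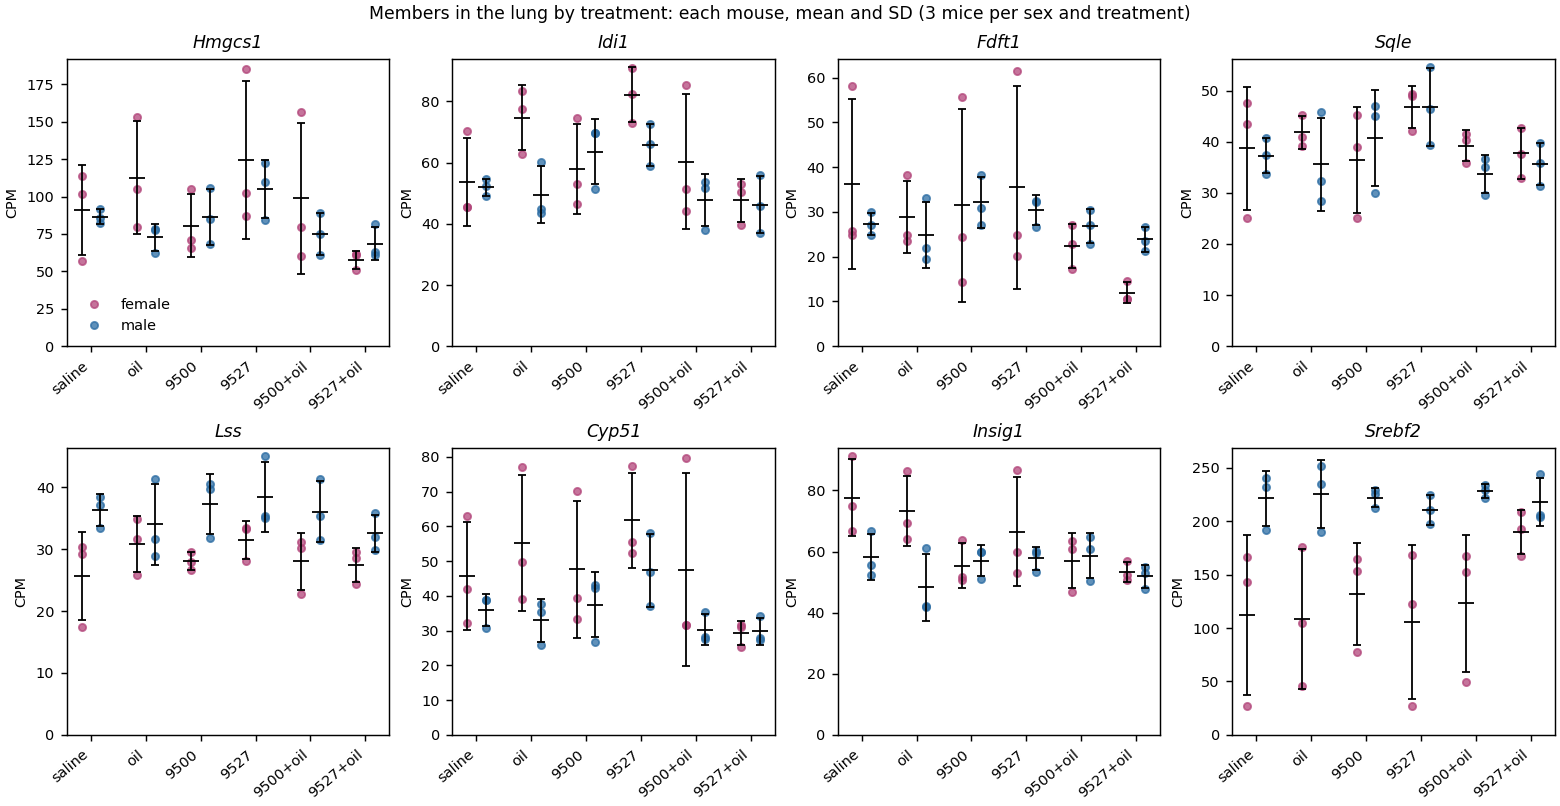
Level of each member (y axis, CPM, from 0) in every mouse by treatment (x axis); points are mice, coloured by sex, and black bars give the mean and SD of 3 mice. In both sexes the 3 points of 9527+oil lie below the 3 points of 9527 for Hmgcs1, Idi1 and Cyp51.

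Whether each treatment changed the members was tested against saline in each sex, with edgeR's quasi-likelihood test and Benjamini-Hochberg adjustment over all genes tested. No member passed. In the 5 comparisons in female mice 0 of 8 members passed an adjusted p of 0.05, where 0.0% of all genes did so. In male mice it was again 0 of 8, where 0.00671% of all genes passed with oil, 0.00662% with 9500, 0.114% with 9527, 0.0% with 9500+oil and 0.00669% with 9527+oil. With both sexes in 1 fit and sex as a covariate 0 of 8 members passed, and 0.0326% of all genes did with 9527 and 0.0% with each of the other 4 treatments. A test of any difference among the 6 groups called 0 of 8 members in either sex, and 0.0129% of all genes in female and 0.135% in male mice. At an unadjusted p under 0.05 that test held 0 members in female mice (1.35% of all genes) and 3 in male mice (10.4%), Hmgcs1 (adjusted p = 0.414 by edgeR), Idi1 (0.422) and Cyp51 (0.433). Since these fits called almost no gene at all, they show little about the members in particular. The 5 comparisons of a sex share their 3 saline mice, and the comparison of 9527+oil with 9527 shares its mice with those of each group against saline.

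At an unadjusted p under 0.05, a level that many genes reach without a change, the oil comparisons held 0 members in female mice (0.108% of all genes), male mice (8.21%) and both sexes (0.442%). With 9500 it was 0 in female mice (0.364%), 1 in male mice (6.35%), Idi1 at 0.29 ± 0.13 (log2 fold change ± SE), and 0 in both sexes (2.3%). With 9500+oil it was 0 in female (0.155%), male (9.22%) and both sexes (0.418%). The oil and 9500 arms, alone or together, thus held 1 such member in 9 comparisons. Without the libraries over 20% mitochondrial counts the female fits also held 0 members with oil (0.959% of all genes), 9500 (1.64%) and 9500+oil (1.24%). Over both sexes their log2 fold changes ran from -0.35 (Fdft1, 9500+oil) to 0.20 (Idi1, 9500), and the 95% intervals of Hmgcs1 were -0.47 to 0.49 with oil, -0.53 to 0.33 with 9500 and -0.57 to 0.50 with 9500+oil, so changes of that size in either direction could have been missed.

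With 9527 alone the male values leaned upward. In male mice 6 of 8 log2 fold changes were above 0, where 51.7% of all genes were below 0, with a median of 0.22 against -0.01 over all genes tested, and 2 members had an unadjusted p under 0.05 (13.7% of all genes), Idi1 (0.34 ± 0.11, unadjusted p = 0.0114, adjusted p = 0.213 by edgeR) and Sqle (0.33 ± 0.14, unadjusted p = 0.045, adjusted p = 0.347 by edgeR). In female mice 5 of 8 were above 0, where 46.0% of all genes were below 0, with a median of 0.28 against 0.03, and 0 had an unadjusted p under 0.05 (0.267% of all genes). Without the libraries over 20% mitochondrial counts that female median was 0.03, and 1 member, Cyp51, had an unadjusted p under 0.05 (4.98% of all genes; 0.55 ± 0.20, adjusted p = 0.954 by edgeR). Over both sexes 1 member did (2.86% of all genes), Idi1, at 0.47 ± 0.15 (95% interval 0.14 to 0.81, unadjusted p = 0.0095, adjusted p = 0.932 by edgeR), and Cyp51 had 0.41 ± 0.20. Marker lists moved with this comparison. The summed cycling markers were higher with 9527 than with saline without overlap in both sexes (196.9 to 267.5 against 65.6 to 133 CPM in female and 123.8 to 289.7 against 49.1 to 77.9 CPM in male mice), as were fibroblast markers (2306 to 3077 against 1743 to 2175 and 3036 to 3538 against 2390 to 2683 CPM). Of the 19 lists, 3 were higher and 0 lower without overlap in female mice, the third being alveolar macrophage markers, and 3 were higher, with goblet cell markers, and 7 lower in male mice. The 7 were the alveolar type 1, club, neutrophil, endothelial, mesothelial, adipocyte and erythroid lists, among them endothelial markers at 3634 to 3807 against 4508 to 5087 CPM. In female mice all 7 endothelial, all 6 club and all 7 erythroid markers were below 0. Their part in the values of the members was not tested.

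With 9527+oil they leaned downward. In male mice 8 of 8 log2 fold changes were below 0, where 50.6% of all genes were, and the median was -0.17. Hmgcs1 (-0.34 ± 0.13, unadjusted p = 0.0274, adjusted p = 0.885 by edgeR) was the 1 member with an unadjusted p under 0.05 (5.54% of all genes). In female mice 2 did (1.1% of all genes), Fdft1 (-1.62 ± 0.44, unadjusted p = 0.00988) and Insig1 (-0.55 ± 0.22, unadjusted p = 0.046), both with an adjusted p of 0.914 by edgeR. Without saline mouse 3 these were -1.08 ± 0.17 (adjusted p = 0.306 by edgeR) and -0.40 ± 0.10 (adjusted p = 0.325 by edgeR), the 2 members with an unadjusted p under 0.05, as 12.3% of all genes then had. Saline mouse 3 was the library in which Fdft1 and Insig1 were the highest of the 3 saline mice. Over both sexes 4 members did (2.99% of all genes), all lower: Fdft1 (-0.90 ± 0.31), Hmgcs1 (-0.50 ± 0.17), Cyp51 (-0.46 ± 0.18) and Insig1 (-0.36 ± 0.13), each with an adjusted p of 0.837 by edgeR. In female mice all 10 alveolar macrophage markers were below 0 (median -0.60), 2 with an unadjusted p under 0.05, and their sum was 561.7 to 574.6 CPM against 754.4 to 1123 CPM with saline. In male mice 4 of 10 were below 0 (median 0.04). The endothelial sum differed without overlap in opposite directions, at 4074 to 4530 against 2156 to 4070 CPM in female and 4343 to 4464 against 4508 to 5087 CPM in male mice. The other 17 lists overlapped in female and the other 18 in male mice, and goblet cell markers had 2 of 6 lower in female and 2 of 6 higher in male mice at an unadjusted p under 0.05. The part of these cells in the values of the members was not tested.

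**Figure D3:**
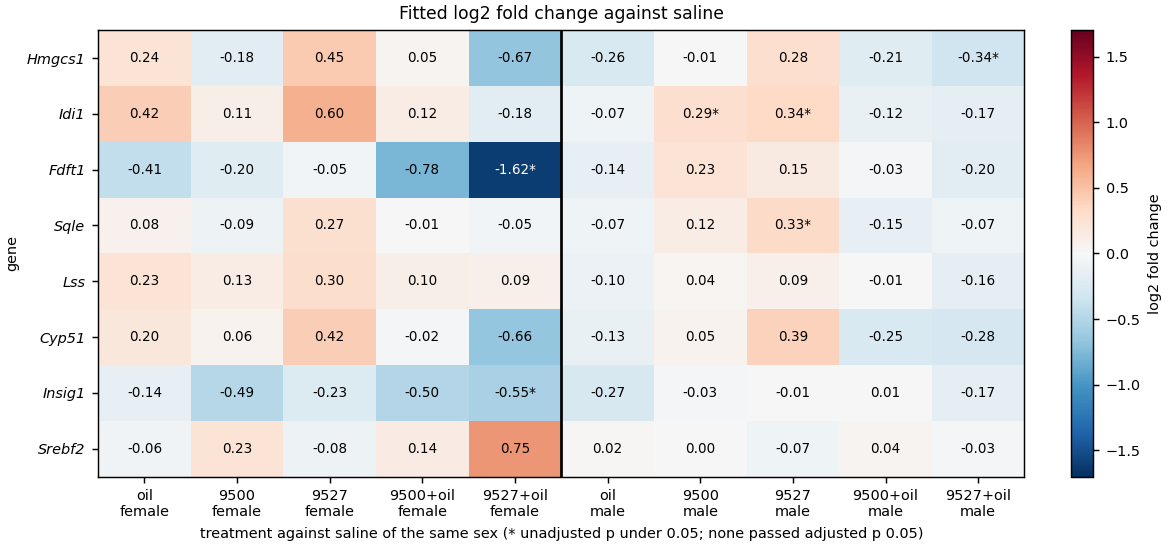
Fitted log2 fold change of each member (rows) for each treatment against saline of the same sex (columns), coloured by value; an asterisk marks an unadjusted p under 0.05. The column of 9527 in male mice holds 6 positive values, that of 9527+oil in male mice holds 8 negative ones, and Fdft1 in female 9527+oil has the lowest value, -1.62.

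No difference between the sexes in the response to a treatment was detectable. The interaction of sex and treatment called 0 of 8 members for each of the 5 treatments, and 0.0% of all genes in each. The interaction with the smallest p was that of Fdft1 with 9527+oil, a male minus female difference of 1.40 ± 0.45 in log2 fold change (unadjusted p = 0.0109, adjusted p = 0.948 by edgeR).

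The 2 dispersants were compared with each other over both sexes. With 9527 against 9500, 7 of 8 log2 fold changes were above 0 and the median was 0.21, but 0 of 8 members passed an adjusted p of 0.05 (0.0% of all genes) and 0 had an unadjusted p under 0.05 (3.33% of all genes). Hmgcs1 had the largest difference, 0.46 with a 95% interval of -0.02 to 0.94, and Cyp51 had 0.35 (-0.12 to 0.83), so neither equality nor a difference was shown. Adding oil to 9500 gave a median of -0.05, 0 of 8 members past an adjusted p of 0.05 (0.0% of all genes) and 0 at an unadjusted p under 0.05 (1.95% of all genes), with Cyp51 at -0.15 (95% interval -0.72 to 0.42) and Hmgcs1 at 0.05 (-0.46 to 0.56).

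Adding oil to 9527 gave the 1 call among the members, a call that was lost with all 6 groups in 1 fit and with no sex term (0 of 8 members in each). Cyp51 fell by 0.87 on the log2 scale, or by 45.2% (SE 0.16 in log2, 95% interval -1.22 to -0.51, adjusted p = 0.0427 by edgeR, 12 mice), and was the 1 member of 8 to pass, where 0.559% of all genes did (86 of 15396, of which 79 fell). Idi1 (-0.64 ± 0.14, adjusted p = 0.0752 by edgeR) and Hmgcs1 (-0.86 ± 0.20, adjusted p = 0.104 by edgeR) missed the threshold. At an unadjusted p under 0.05 there were 5 members, all lower: these 3 together with Fdft1 (-0.95 ± 0.31, unadjusted p = 0.0102) and Sqle (-0.35 ± 0.13, unadjusted p = 0.0171). Over all genes 14.1% reached that level, and 8.73% did so with a lower value in 9527+oil. Lss (-0.21, 95% interval -0.47 to 0.04) and Insig1 (-0.23, -0.52 to 0.06) had smaller values, and Srebf2 was the 1 member above 0 (0.45, -0.29 to 1.20). The median of the 8 was -0.49, against 0.01 over all genes.

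The direction was the same in each sex, although the fits of all 6 mice of a sex did not call a member. In female mice 4 members had an unadjusted p under 0.05 (6.65% of all genes), Cyp51 (-1.08 ± 0.26), Hmgcs1 (-1.11 ± 0.35), Idi1 (-0.78 ± 0.23) and Fdft1 (-1.57 ± 0.49), each with an adjusted p of 0.555 by edgeR, and 0.0% of all genes passed the adjusted threshold. Without 9527 mouse 11, which leaves 2 female 9527 mice, Cyp51 passed (-0.88 ± 0.15, adjusted p = 0.0484 by edgeR), as 0.757% of all genes did, and Hmgcs1 (-0.71 ± 0.14), Fdft1 (-0.90 ± 0.20) and Idi1 (-0.70 ± 0.16) had adjusted p values from 0.0635 to 0.0781 by edgeR. In male mice 5 did (11.6% of all genes), Cyp51 (-0.68 ± 0.18), Hmgcs1 (-0.63 ± 0.17), Idi1 (-0.52 ± 0.16), Sqle (-0.40 ± 0.15) and Fdft1 (-0.36 ± 0.14), with adjusted p values from 0.324 to 0.40 by edgeR, and 0.0134% of all genes passed. The difference between the sexes was largest for Fdft1 (1.22 ± 0.52 higher in male mice, adjusted p = 0.779 by edgeR). Every 9527+oil mouse was below every 9527 mouse of its own sex for 3 of 8 members, Hmgcs1, Idi1 and Cyp51, as for 3.38% of all genes (516 of 15259).

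One library had a large part in the number of calls, which was larger without it. In CPM, female 9527 mouse 11, with 38.4% mitochondrial counts, held the highest Hmgcs1, Idi1 and Fdft1 values of the female table and the lowest of Srebf2. This order depends on the scaling. The 854 Idi1 counts of mouse 11, of 17654791 in all, gave 90.9 CPM, and the 2733 of mouse 12, of 30011557, gave 82.55 CPM. Without mouse 11, 4 of 8 members passed an adjusted p of 0.05, where 6.63% of all genes did: Cyp51 (-0.77 ± 0.12, adjusted p = 0.00545 by edgeR), Hmgcs1 (-0.67 ± 0.11, adjusted p = 0.00765 by edgeR), Idi1 (-0.60 ± 0.12, adjusted p = 0.0128 by edgeR) and Fdft1 (-0.60 ± 0.14, adjusted p = 0.0254 by edgeR). Sqle was at -0.35 ± 0.11 (adjusted p = 0.0739 by edgeR) and Srebf2 at 0.19 ± 0.11 (adjusted p = 0.297 by edgeR). The fold changes of Hmgcs1, Fdft1 and Cyp51 were thus smaller without this library and their errors smaller still. The call of Cyp51 was lost on leaving out any 1 of 10 of the other 11 mice, with adjusted p values of 0.0781 to 0.155 by edgeR and log2 fold changes of -0.80 to -0.94, and kept without male 9527 mouse 12 (-0.95, adjusted p = 0.0197 by edgeR).

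**Figure D4:**
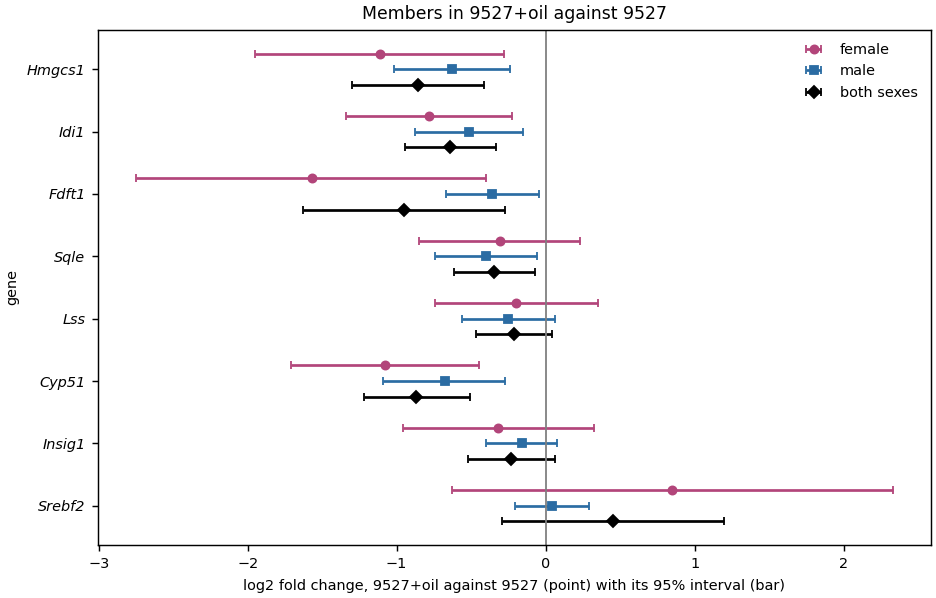
Log2 fold change of 9527+oil against 9527 (x axis) for each member (y axis) in female mice, male mice and both sexes; points are fitted values and bars 95% intervals. For Hmgcs1, Idi1, Fdft1 and Cyp51 all 3 intervals lie below 0, while Srebf2 lies at 0.85 in female and 0.04 in male mice, both intervals crossing 0.

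Other measures moved with this comparison. All 6 markers of cycling cells (Mki67, Top2a, Cdk1, Ccnb1, Rrm2 and Birc5) fell in 9527+oil against 9527 over both sexes, with log2 fold changes from -1.37 to -1.79 and adjusted p values from 0.0194 to 0.0267 by edgeR. Their sum was 196.9 to 267.5 CPM with 9527 and 55.1 to 75.4 CPM with 9527+oil in female mice, and 123.8 to 289.7 CPM and 71.0 to 100.4 CPM in male mice, so neither sex overlapped. All 10 alveolar macrophage markers had log2 fold changes below 0, of which 0 passed the adjusted threshold and 4 had an unadjusted p under 0.05 (14.1% of all genes). Their sum was 1407 to 2199 CPM with 9527 against 561.7 to 574.6 CPM with 9527+oil in female mice, and 962.4 to 1768 CPM against 598.1 to 993.5 CPM in male mice, where the groups overlapped. Endothelial markers moved the other way, with 7 of 7 above 0 and 4 at an unadjusted p under 0.05. Without overlap in both sexes the fibroblast sum was lower (1757 to 2276 against 2306 to 3077 CPM in female and 2350 to 2539 against 3036 to 3538 CPM in male mice), and the endothelial, ciliated and mesothelial sums were higher. The endothelial sum was 4074 to 4530 against 2339 to 3043 CPM in female and 4343 to 4464 against 3634 to 3807 CPM in male mice. In 1 sex alone, alveolar type 1 and muscle markers were higher without overlap in female and club cell markers in male mice. The alveolar type 2 sum, 12020 to 23490 CPM with 9527 and 15500 to 19380 CPM with 9527+oil in female mice, overlapped. In the other marker lists, 0 genes passed an adjusted p of 0.05 in this comparison. At an unadjusted p under 0.05, which 14.1% of all genes had, neutrophil markers had 4 of 7 higher (median 1.40) and club cell markers 4 of 6 higher, while goblet cell markers had 2 of 6 and B cell markers 1 of 5 lower. A list of 7 or 8 with 1 such gene is near that share. Adipocyte (2 of 6 tested), mesothelial (2 of 5), ciliated (1 of 7), monocyte and interstitial macrophage (1 of 8), T and NK cell (1 of 7), smooth muscle (1 of 6), cardiac and skeletal muscle (1 of 7 tested) and erythroid (1 of 7) markers had such genes on the higher side alone. Alveolar type 2 markers had 1 of 10 lower, alveolar type 1 markers 1 higher and 1 lower of 8, fibroblast markers 2 higher and 2 lower of 7, and liver markers 0 of 2 tested. In the test of any difference among the male groups, 4 genes of the marker lists passed: Col3a1 (fibroblast), Upk3b (mesothelial), Cdk1 and Ccnb1 (cycling), with adjusted p values from 0.045 to 0.0451 by edgeR. The part of these cells in the levels of the members was not tested.

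The rest of the pathway was read from a list of 16 other enzymes, all tested. In 9527+oil against 9527 over both sexes 0 of 16 passed an adjusted p of 0.05, 4 had an unadjusted p under 0.05, all lower, where 14.1% of all genes had one, and the median was -0.06. Among these were Nsdhl (-0.42 ± 0.12, adjusted p = 0.198 by edgeR) and Hsd17b7 (-0.57 ± 0.19, adjusted p = 0.248 by edgeR), which remove and reduce groups on the sterol ring. Msmo1 (-0.37 ± 0.11, adjusted p = 0.209 by edgeR), a methyl sterol oxidase that acts at a later step than CYP51, was another. In male mice 13 of 16 were below 0, as 49.1% of all genes were, and 8 had an unadjusted p under 0.05, all lower, as 11.6% of all genes had in either direction, with a median of -0.32. Fdps, the farnesyl diphosphate synthase, had the largest of these differences together with Hsd17b7 (both -0.69), and Mvd, Mvk and Acat2, of the mevalonate branch, had -0.45, -0.32 and -0.32. In female mice 9 of 16 were below 0 (49.0% of all genes) and 0 had an unadjusted p under 0.05 (6.65% of all genes), and errors were larger (Mvd 0.30 ± 1.26). Ggps1, Pmvk, Lbr, Sc5d, Dhcr7, Ebp and Tm7sf2 had values from -0.07 to 0.21 over both sexes, none with an unadjusted p under 0.05. Against saline, 0 of 16 passed an adjusted p of 0.05 with any treatment, and male mice given 9527 had 4 at an unadjusted p under 0.05 (13.7% of all genes), all higher: Fdps (0.44 ± 0.13), Dhcr7 (0.37 ± 0.12), Nsdhl (0.37 ± 0.13) and Ebp (0.35 ± 0.10). Male mice given 9500 had 1 higher (6.35% of all genes) and those given oil 0 (8.21%). With 9500+oil 2 were lower (9.22%) and with 9527+oil 1 was lower (5.54%).

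Lists around the pathway were read in the same comparison. In 9527+oil against 9527 over both sexes 0 genes of any of these lists passed an adjusted p of 0.05. The shares at an unadjusted p under 0.05 are read against 14.1% of all genes. Of 12 genes of SREBP control 0 had an unadjusted p under 0.05, and 6 were above and 6 below 0 (median 0.04). Among them Erlin2 was at -0.00452 ± 0.18, Rnf139 at -0.78 ± 0.41 and Ubxn1 at -0.59 ± 0.43. Of 8 SREBP2 targets outside synthesis 7 were below 0 (median -0.11) and 1 had such a p, the sterol carrier Stard4 (-0.39 ± 0.13), beside Npc2 (-0.41 ± 0.27), Rdh11 (-0.19 ± 0.13) and Mmab (-0.09 ± 0.11). Of 17 genes of fatty acid synthesis 9 were above and 8 below 0 (median 0.01), and 3 had such a p, among them malic enzyme Me1 (-0.88 ± 0.24) and Thrsp (0.73 ± 0.27), whereas the elongases Elovl6 (-0.03 ± 0.16) and Elovl1 (-0.14 ± 0.39) did not. Of 14 genes of cholesterol efflux 10 were above and 4 below 0, with a median of 0.30 against 0.01 over all genes. In this list 2 had an unadjusted p under 0.05, 1 lower, the oxysterol hydroxylase Cyp7b1 (-1.09 ± 0.25, adjusted p = 0.0924 by edgeR), and 1 higher, the phospholipid transfer protein gene Pltp (0.68 ± 0.24), named after its value was seen. The 3 other genes named by the rule were below 0, where the transporter Abca1 had -0.23 ± 0.26, Lpcat3 -0.08 ± 0.36 and Ch25h, which makes 25-hydroxycholesterol, -0.80 ± 0.51. Of 14 genes of cholesterol storage and uptake 8 were above and 6 below 0 (median 0.12), and 3 had an unadjusted p under 0.05. They were Soat2 (1.23 ± 0.54), which esterifies cholesterol and was named after its value was seen, the scavenger receptor Msr1 (-1.05 ± 0.40) and the ester hydrolase Nceh1 (-0.36 ± 0.14), with the lysosomal lipase Lipa at -0.84 ± 0.43. Of 12 genes of the isoprenoid branch 0 had such a p, and 6 were above and 6 below 0 (median 0.01), with Nus1 at -0.68 ± 0.34, Zmpste24 at -0.55 ± 0.26 and Dhdds at 0.05 ± 0.11. Against saline in male mice given 9527, Npc2, which hands cholesterol on in the lysosome, had 0.54 ± 0.09 (adjusted p = 0.0618 by edgeR).

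Across the 18 male mice the members varied together apart from Srebf2. The 21 pairs among the other 7 members had Pearson correlations of log2 CPM from 0.38 to 0.90, with a median of 0.75, whereas the 7 pairs with Srebf2 ran from -0.09 to 0.35. Against the mean of the other 7 members, Sqle had r = 0.89 (Spearman's rho = 0.88), Idi1 0.88 (0.89), Lss 0.88 (0.87), Cyp51 0.84 (0.86), Hmgcs1 0.83 (0.82), Fdft1 0.82 (0.87), Insig1 0.60 (0.56) and Srebf2 0.17 (0.11). Without the 2 mice farthest from the median of that mean, the 7 ran from 0.71 to 0.94 and Srebf2 had 0.35. These are descriptions over libraries that share a table, a normalization and the treatment groups.

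In the 14 female mice at or under 20% mitochondrial counts, the 21 pairs ran from -0.27 to 0.90 with a median of 0.44. Hmgcs1 (r = 0.86, rho = 0.79), Idi1 (0.80, 0.77) and Cyp51 (0.73, 0.79) followed the mean of the others most closely, and Srebf2 ran against it (-0.69, -0.63). Sqle (0.03, 0.33) depended on 9500 mouse 7, without which it had r = 0.65. Without that mouse all 21 pairs were positive, from 0.28 to 0.94, and the pairs with Srebf2 ran from -0.66 to -0.08. Over all 18 female mice Srebf2 had r = -0.78, the 4 libraries over 20% included.

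**Figure D5:**
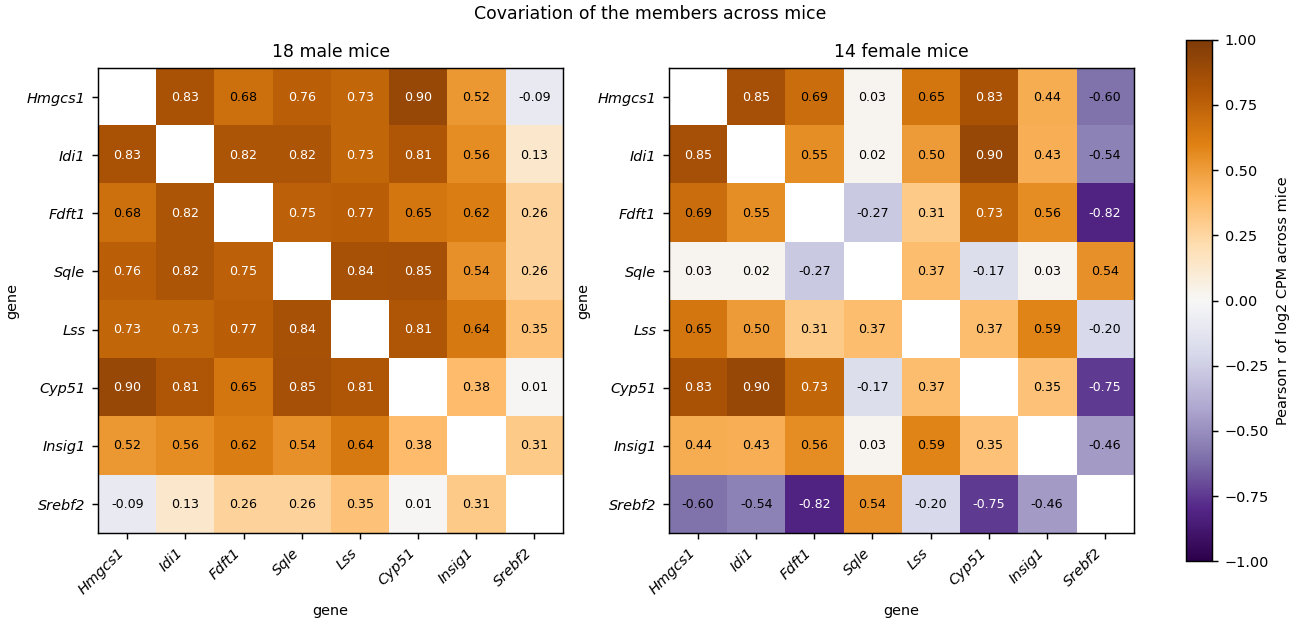
Pearson correlation of log2 CPM between each pair of members across the 18 male mice (left) and the 14 female mice at or under 20% mitochondrial counts (right). In male mice the 21 pairs without Srebf2 are all at 0.38 or above, while the row of Srebf2 is pale, and in female mice most of the row of Srebf2 is negative.

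Among 15251 other genes, those most like the mean of the 8 members were ranked by the lower of the male (18 mice) and female (14 mice) correlations. Fdps came first (r = 0.87 in male and 0.83 in female mice), and Msmo1 (0.93 and 0.80) and Stard4 (0.78 and 0.82) were also among the first 10, and these 3 belong to the lists of the pathway. The other 7 of the first 10 were Acot7 (0.81 and 0.81), Trap1, BC004004, Cdk4, Sel1l3, Ppil1 and Pole4, with lower values from 0.72 to 0.77 for the last 6. Hsd17b7 followed at rank 11 (0.71 and 0.80). With all 18 female mice the female correlation was -0.04 for Fdps, 0.03 for Acot7 and -0.12 for Cdk4, but 0.73 for Msmo1 and 0.83 for Stard4. Without 9500 mouse 7, 8 of these 10 remained among the first 10. In male mice alone, the 10 most alike included the pathway enzymes Msmo1 (0.93), Fdps (0.87) and Mvd (0.84). Ggps1, which leads away from sterols, ran against the members in both sexes (-0.56 in male and -0.35 in female mice).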

How the data were processed

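Left lung RNA from 36 mice was prepared with a stranded mRNA kit. Per the labels and the study's methods, the authors quantified reads with Salmon against GRCm38, and deposited expected counts summed per gene in separate female and male tables, in which all values were whole. Rows sharing a name (4 in each table, at most 0.0128% of counts) were left out, 24 names in each table read as dates, and no row summed to less than 10. Groups came from the labels.

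Genes were filtered with filterByExpr, normalised by TMM and tested with the quasi-likelihood test of edgeR 4.0.16 (R 4.3.3), with Benjamini-Hochberg adjustment over all genes tested and a threshold of 0.05. Fits held the mice of the groups compared, and fits of both sexes had sex as a covariate. The SE of a log2 fold change was its size over the root of F, and intervals are 95%. CPM used the TMM library sizes of each table, and log2 CPM a prior count of 2. The scripts were tested on simulated data. Alternatives used DESeq2 1.42.0, limma 3.58.1 voom with sample weights, other normalizations and filters, and left out libraries. At these totals of at least 17501180 counts per library, the lowest count of a member was 149.

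The members and gene lists were chosen with earlier results of these data known. The genes named were the members, all other enzymes of the pathway, from each other list the 2 genes with the smallest p for any difference in each sex, the 10 genes most like the members, and genes of a list past the adjusted threshold. Some of the genes that this rule names are not reported here, although they stay in the counts over their lists. Names matched 1 gene each in GENCODE M21 for 17787 of 18691. Promoters are from RefSeq.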

Additional observations from a re-analysis of the deposited data

How the results depend on the processing

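No paired analysis was possible because the mice of different groups share no numbers. The count of members past an adjusted p of 0.05 in 9527+oil against 9527 over both sexes depended most on the processing. It was 1 with edgeR (0.559% of all genes called), 3 with DESeq2 (4.23%), 5 with voom sample weights (10.2%), and 0 with all 6 groups in 1 fit (0.999%) or with no sex term (0.572%). It was 4 (6.63%) without female 9527 mouse 11, and leaving out the libraries over 20% mitochondrial counts or the 5 that stood apart is that same fit here, since no other of them is in these groups. It was 0 in female or male mice alone. The fits by sex and without the 5 libraries were chosen after seeing the data. Leaving out 1 mouse gave 0 to 4. The median log2 fold change was -0.51 to -0.44 over the other settings of both sexes, -0.55 in female and -0.38 in male mice alone, and -0.55 to -0.46 on leaving out 1 mouse. Over all genes the calls ran from 0 to 1570, against 86.

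DESeq2 called 0 members in every other comparison for which its calls were read. They were not read for 9527+oil against 9527 within each sex or for the interaction of that pair with sex. With voom sample weights 1 member, Cyp51, passed in 9527 against saline over both sexes, where 5.19% of all genes did, and 4 members passed the female test of any difference, where 7.23% of all genes (1123) did, against 0 members in each with edgeR. The female median for 9527 against saline was 0.28 with edgeR, 0.0335 without the libraries over 20% or the 5 that stood apart, and -0.0353 with voom weights. That for 9500+oil was 0.02, -0.23 and -0.18 in the same order, and -0.27 to 0.13 on leaving out 1 mouse, with -0.27 without 9500+oil mouse 14 and -0.14 without saline mouse 3. That for 9500 ran from -0.23 to 0.0918 on leaving out 1 mouse, the lowest without mouse 7. The cause was not tested. Of 1840 log2 fold changes of single members under the other settings, 1823 kept their side of the threshold, 4 lost and 13 gained it, and 0 turned a called direction, while 119 changed sign without a call. On leaving out 1 mouse 219 of 1728 changed sign. Counts of calls over all genes against saline also varied, in male mice given 9527 from 17 with edgeR to 594 with DESeq2, given oil from 1 to 195 and for any difference from 21 to 612, and over both sexes with 9527 from 5 to 796 with voom weights. Counting error was not separated from the spread between mice.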
